A study of Gallus gallus with 8 samples.

Results

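The genes described here are CHRNA9, CHRNA10 and CHRNA7, 3 subunits of nicotinic acetylcholine receptors linked with the efferent innervation of the inner ear. Members were the probe sets that carry one of these gene names, and each gene had 1 probe set, so that 3 of 38439 probe sets and 3 of 14162 named genes were followed. CHRNA10 was named by its symbol in the authors' sheet, and CHRNA9 and CHRNA7 by their descriptions there. The rule used names and no measured value. Sensory epithelium had been dissected from 2 organs of the chick inner ear, the utricle, which serves balance (4 arrays), and the cochlea, which serves hearing (4 arrays). All 8 samples came from chicken embryos at embryonic day 20 to 21, and the labels name no treatment. Each array carried RNA of 10 to 20 pooled epithelia, so single animals were not resolved, and the labels give neither strain nor sex. The labels describe the dissected epithelia as hair cells with supporting cells, and call the samples biological replicates. No label says which animals went into a pool, so the p-values measure the spread between these pools.

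Efferent neurons in the brainstem send axons to the ear and release acetylcholine onto hair cells and afferent terminals. The α9 and α10 subunits, encoded by CHRNA9 and CHRNA10, combine in a calcium-permeable channel on hair cells. The α9 subunit can also form a channel by itself, whereas in the rat α10 needs α9 as a partner. Calcium that enters through this receptor opens nearby calcium-activated potassium channels, and the hair cell is inhibited. CHRNA7 encodes α7, which forms a channel from its own subunits and is best known from neurons.

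Probe sets were tested if their log2 signal exceeded 4 on at least 4 of the 8 arrays, a level passed by 40.98% to 41.77% of the probe sets, depending on the array. All 3 members were among the 16223 probe sets tested. Utricle arrays 2 and 3 stood apart in some genes. The calcium buffer CALB1 read 7.47 and 6.89 log2 signal on them and 2.49 and 2.50 on utricle arrays 1 and 4, against 15.33 to 15.42 in the cochlea. The summed signal of 6 glial marker genes was 12516.3 and 12193.8 on these arrays, and 5942.8 and 6611.4 on the other 2 utricle arrays. Much of that rise came from a single marker, at 12.19 and 12.2 on utricle arrays 2 and 3 and 8.0 and 7.68 on arrays 1 and 4. Each member is therefore also given without utricle arrays 2 and 3.

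The comparison asked how the subunits differ between a vestibular and an auditory epithelium. CHRNA9 was higher in the utricle, and CHRNA10 and CHRNA7 were higher in the cochlea. All 3 differences passed the threshold, an adjusted p under 0.05 in limma over all tested probe sets. That threshold was passed by 51.5% of all probe sets tested, 26.4% with the utricle higher and 25.1% with the cochlea higher, so a call by itself sets no gene apart here. For all 3 genes the arrays of one tissue did not overlap those of the other, as was the case for 48.7% of all probe sets tested. All 3 also differed by at least 2-fold, which together with the adjusted p held for 21.2% of the probe sets tested.

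CHRNA9, the subunit able to form the hair cell receptor alone, had log2 signals of 8.53, 7.42, 8.36 and 8.45 on the utricle arrays and of 6.37, 6.43, 6.38 and 5.59 on the cochlea arrays. Utricle array 2 and cochlea array 4 lay lower than the other arrays of their tissue, and the lowest utricle array was still above the highest cochlea array, by 1.00. The means were 8.19 ± 0.51 in the utricle and 6.19 ± 0.40 in the cochlea (log2 signal, SD, n = 4 arrays each). CHRNA9 showed 4.00-fold higher signal in the utricle, a difference of 2.00 (95% confidence interval 1.35 to 2.64, limma adjusted p = 4.07e-04). The difference was larger in size than that of 91.7% of the probe sets tested. CHRNA9 also varied more than most within a tissue, with a pooled SD of 0.46 that exceeded the SD of 92.2% of the probe sets tested. In whole epithelium, fewer cells of a type and less RNA per cell cannot be told apart, and this holds for every difference given here. Without utricle arrays 2 and 3 the difference was 2.30 (adjusted p = 7.52e-04).

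CHRNA10, the partner of α9, had log2 signals of 9.83, 9.87, 10.12 and 10.59 on the utricle arrays and of 11.03, 11.57, 11.60 and 11.90 on the cochlea arrays. The tissues were separated by 0.44, the narrowest gap of the 3 genes, between utricle array 4 and cochlea array 1. The means were 10.10 ± 0.35 in the utricle and 11.53 ± 0.36 in the cochlea. CHRNA10 showed 2.68-fold higher signal in the cochlea, a difference of -1.42 (-1.93 to -0.92, limma adjusted p = 7.40e-04). Its direction was thus opposite to that of CHRNA9. The difference was larger in size than that of 86.3% of the probe sets tested, and without utricle arrays 2 and 3 it was -1.32 (adjusted p = 0.0136).

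CHRNA7, the subunit of the α7 channel, had log2 signals of 3.28, 3.06, 3.60 and 3.32 on the utricle arrays and of 7.56, 7.0, 7.65 and 7.59 on the cochlea arrays. None of the utricle arrays reached 4, and all of the cochlea arrays lay well above it, so that the tissues were 3.40 apart at their nearest arrays. The means were 3.32 ± 0.22 in the utricle and 7.45 ± 0.30 in the cochlea. With utricle values raised to 4, CHRNA7 showed at least 10.9-fold higher signal in the cochlea. On that scale the difference was -3.45 (limma adjusted p = 2.20e-07), larger in size than that of 97.9% of the probe sets tested. Raising made the 4 utricle values equal, so the only spread of CHRNA7 behind that p is that of the cochlea arrays. CHRNA7 passed the filter through the cochlea arrays alone, and the difference fitted on the values as deposited, -4.13 (-4.52 to -3.74, adjusted p = 2.54e-07), rests on utricle values under 4. Without utricle arrays 2 and 3 the fitted difference was -4.15 (adjusted p = 2.56e-05). The probe set of CHRNA8, a close relative of CHRNA7, did not exceed 4 on any array, and none of the 3 member probe sets has the ID suffix that marks probes shared between transcripts.

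**Figure D1:**
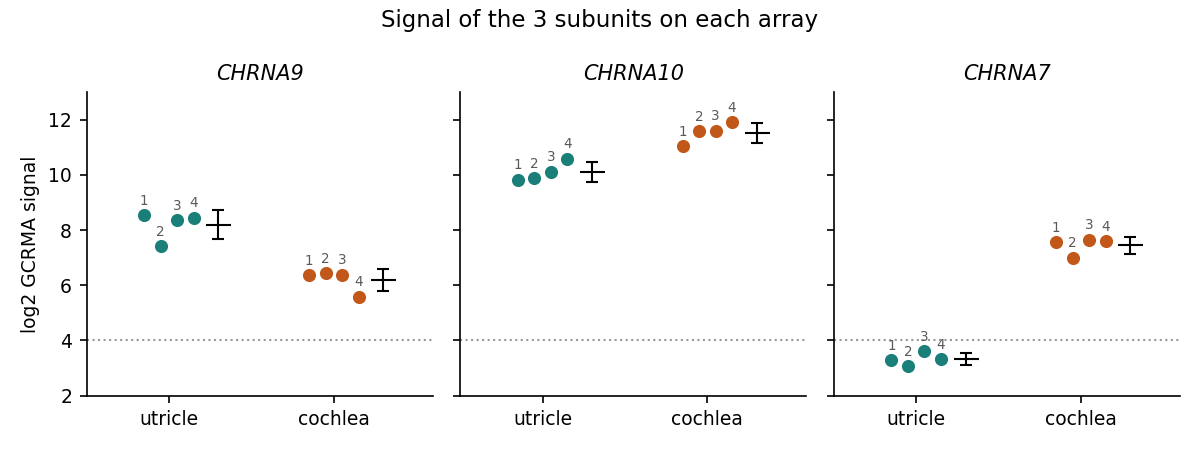
Log2 GCRMA signal (y axis) of CHRNA9, CHRNA10 and CHRNA7 on the 4 utricle and 4 cochlea arrays, with array numbers beside the points, the mean ± SD as a bar, and a dotted line at 4, the level used as the filter. CHRNA9 averages 8.19 in the utricle and 6.19 in the cochlea, CHRNA10 averages 10.10 on utricle arrays and 11.53 on cochlea arrays, and CHRNA7 lies below the line on all utricle arrays and at 7.0 to 7.65 in the cochlea.

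The authors' deposited table gave the same directions. In it CHRNA9 was 4.03-fold higher in utricle than in cochlea, and CHRNA10 was 2.70-fold and CHRNA7 19.61-fold higher in cochlea than in utricle, each with a q-value of 0% in SAM, a permutation-based test for arrays. The same table counts CHRNA7 as present on 4 of 4 utricle arrays and 4 of 4 cochlea arrays, although its GCRMA signal in the utricle lay below 4. The 19.61-fold value therefore rests on utricle values in the range where only a bound was given above.

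Signals of different probe sets cannot be set against each other as levels, because each probe set has its own efficiency, but a difference between genes within an array can be compared between tissues. The difference CHRNA9 minus CHRNA10 was -1.30, -2.45, -1.76 and -2.14 log2 on the utricle arrays and -4.66, -5.14, -5.23 and -6.31 on the cochlea arrays. Every utricle array lay above every cochlea array. The means were -1.91 ± 0.50 in the utricle and -5.33 ± 0.70 in the cochlea (SD, n = 4 arrays each), and CHRNA9 relative to CHRNA10 was higher in the utricle by 10.7-fold (difference 3.42, exact permutation test, two-sided, p = 0.0286). That is the smallest p that 4 against 4 arrays can give, and it stayed at 0.0286 after Benjamini-Hochberg adjustment over the 3 pairs of genes. CHRNA9 and CHRNA10 each separated the tissues, in opposite directions, which fixed the separation of their difference and this p in advance. The test therefore adds no support to the single-gene results, and the size of the difference is what it describes.

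The other pairs involve CHRNA7, whose utricle values lay below 4. CHRNA10 minus CHRNA7 averaged 6.78 ± 0.35 in the utricle and 4.08 ± 0.48 in the cochlea. These genes, both higher in the cochlea, thus differed between the tissues to unequal extents (2.71, exact permutation p = 0.0286). With values under 4 raised to 4 the difference was 2.03. CHRNA9 minus CHRNA7 averaged 4.87 ± 0.40 in the utricle and -1.26 ± 0.58 in the cochlea, a difference of 6.13, or 5.45 with values under 4 raised (exact permutation p = 0.0286). The tissues did not overlap in either pair. For CHRNA9 minus CHRNA7, the opposite directions of the 2 genes fixed this and the p in advance. CHRNA10 minus CHRNA7 also had to separate, as CHRNA10 spanned only 9.83 to 11.90 while the tissues lay 3.40 apart in CHRNA7.

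**Figure D2:**
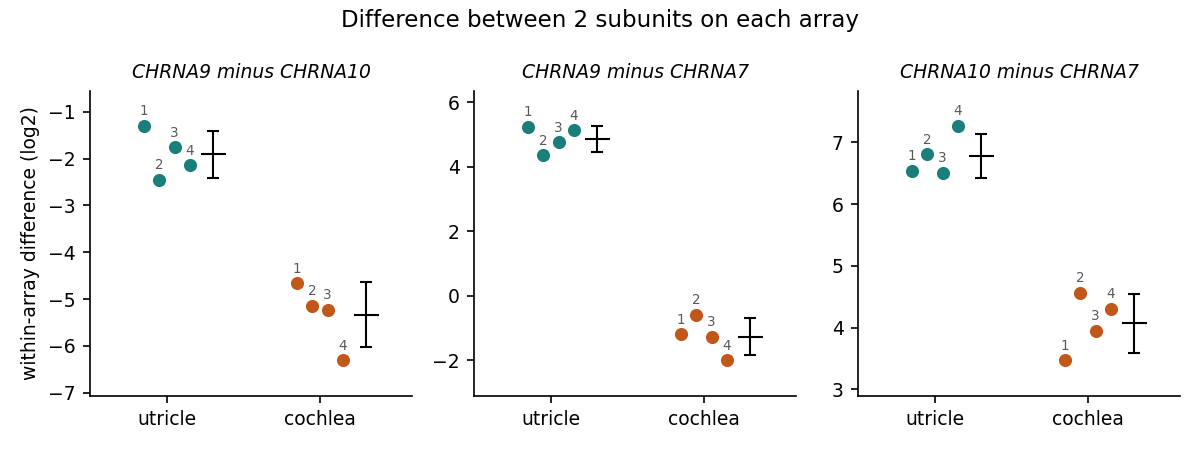
Within-array difference in log2 signal (y axis, a separate scale in each panel) for the 3 pairs of subunits on the 4 utricle and 4 cochlea arrays, with array numbers beside the points and the mean ± SD as a bar. In each panel all utricle points lie above all cochlea points, with means of -1.91 and -5.33 for CHRNA9 minus CHRNA10.

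Other nicotinic subunits form the channels of skeletal muscle, ganglia and brain. Of 14 such genes, 12 had a named probe set, and 9 of these (CHRNA2, CHRNA3, CHRNA4, CHRNA6, CHRNA8, CHRNB3, CHRNB4, CHRND and CHRNG) did not exceed 4 on any array. The remaining 3 were tested, and all 3 were higher in the utricle, as CHRNA9 was, against 26.6% of all 8282 genes tested, and in all 3 the tissues did not overlap, as in 51.1% of those genes. Being tested required signal in at least one tissue, so the 3 do not stand for the 14. The median difference of the 3 was 2.38, and that of all genes was 0.00.

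CHRNA1, the α subunit of the muscle receptor, averaged 9.08 ± 0.53 in utricle and 6.70 ± 0.17 in cochlea, and showed 5.20-fold higher signal in the utricle (limma adjusted p = 5.70e-05). Its arrays read 9.14, 8.61, 8.77 and 9.80 in the utricle and 6.90, 6.52, 6.60 and 6.78 in the cochlea, without overlap, and its other probe set differed by 1.73 in the same direction (adjusted p = 0.00155). CHRND and CHRNG, which encode further subunits of the muscle receptor, did not exceed 4. Of the muscle markers, ACTA1 and TNNC2 were higher in the cochlea, opposite to CHRNA1, and MYOD1, MYOG, MYL1, TNNT3 and DES did not exceed 4 on any array. TTN, the remaining named muscle marker, was not tested but lay on the side of CHRNA1 in the brightest of its 11 probe sets. That probe set read 5.01, 5.57, 5.77 and 3.42 on utricle arrays and 2.81, 2.58, 2.34 and 2.34 on cochlea arrays. CHRNB2, the main β subunit of brain receptors, averaged 6.28 ± 0.40 in utricle and 3.81 ± 0.29 in cochlea, and showed at least 4.66-fold higher signal in the utricle (adjusted p = 2.45e-05). On the cochlea arrays it read 3.66, 3.66, 3.66 and 4.24, so that 1 of 4 exceeded 4, and its other probe set differed by 2.17. CHRNA5, an accessory subunit of ganglionic and brain receptors, averaged 7.08 ± 0.13 in utricle and 6.04 ± 0.46 in cochlea, and showed 2.06-fold higher signal in the utricle (adjusted p = 0.00332). All 4 named muscarinic receptors, the G protein-coupled receptors for acetylcholine (CHRM2, CHRM3, CHRM4 and CHRM5), stayed at or below 4 on every array.

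Genes for proteins that assemble, cluster or modulate nicotinic receptors differed in both directions. Of 13 genes listed, 12 were named and 7 tested, of which 3 were higher in the utricle, 1 was higher in the cochlea, and the remaining 3 did not pass. Over all genes tested, 26.6% were called toward the utricle and 26.7% toward the cochlea. LYPD6B, of a family of small proteins that bind nicotinic receptors, showed 6.10-fold higher signal in the cochlea, at 5.56, 5.76, 5.58 and 5.80 in the utricle and 8.61, 7.38, 7.98 and 9.17 in the cochlea (limma adjusted p = 2.29e-04). AGRN, the clustering factor agrin of the neuromuscular junction, showed 1.58-fold higher signal in the utricle (adjusted p = 0.0027), and its other probe set differed by 0.07. UNC50, whose counterpart in Caenorhabditis elegans is needed for receptor traffic to the membrane, showed 1.54-fold higher signal in the utricle by one probe set (0.62, adjusted p = 0.00112) and lower there by another (-0.73, adjusted p = 8.49e-04), so its probe sets disagree. TMEM35A, a chaperone of α7 and other nicotinic receptors, showed 1.27-fold higher signal in the utricle, opposite to CHRNA7 (adjusted p = 0.0214). That call was lost without utricle array 4 (adjusted p = 0.0524), cochlea array 3 (0.0605) or cochlea array 4 (0.0524), without utricle arrays 2 and 3 (0.0571), and without utricle array 2 and cochlea array 4 (0.0951). RIC3, another chaperone of α7, averaged 4.81 ± 0.28 in the utricle and 5.20 ± 0.15 in the cochlea, a difference that did not pass (-0.39, adjusted p = 0.0553), but did without utricle array 1 (-0.46, adjusted p = 0.0484), with an equal median per array (-0.44, adjusted p = 0.0395) and after a further quantile normalization (-0.50, adjusted p = 0.0247). DOK7, an activator of the clustering pathway, passed without utricle array 4 (0.34, adjusted p = 0.0201) but not over all arrays (0.24). RAPSN, which anchors the muscle receptor, did not exceed 4 on any array.

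The calcium and potassium machinery downstream of the hair cell receptor was measured in part. Of 23 genes listed, 18 were named and 11 tested, with 1 higher in the utricle, 4 higher in the cochlea, 6 that missed the threshold, and a median difference of -0.05. The called shares over all genes tested were 26.6% toward the utricle and 26.7% toward the cochlea. KCNN2, the calcium-activated potassium channel coupled to the α9 and α10 receptor, carried no named probe set and is not analysed here. KCNMA1, the large-conductance channel gated by calcium and voltage, averaged 10.03 ± 0.20 in the utricle and 10.33 ± 0.22 in the cochlea, a difference that did not pass (-0.30, limma adjusted p = 0.104). It passed with the array number as a replicate block (-0.30, adjusted p = 0.0458) and without cochlea array 3 (-0.40, adjusted p = 0.0393). KCNMB4, an auxiliary subunit of that channel, showed at least 3.50-fold higher signal in the cochlea, at 4.43, 3.67, 4.48 and 3.53 in the utricle and 5.75, 6.82, 5.79 and 5.79 in the cochlea (adjusted p = 6.98e-04).

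CABP1, a calmodulin-like calcium sensor, was the gene of this list that was higher in the utricle, 3.79-fold, at 13.55 ± 0.18 in the utricle and 11.63 ± 0.20 in the cochlea (limma adjusted p = 4.92e-06), and its other probe set differed by 1.98. RYR2, a release channel of intracellular calcium stores, showed at least 2.72-fold higher signal in the cochlea (adjusted p = 1.53e-04). STIM1, the sensor of store calcium, showed 1.52-fold higher signal in the cochlea (adjusted p = 3.58e-04). ITPR2, a store channel opened by inositol trisphosphate and named here after its values were seen, showed 1.91-fold higher signal in the cochlea (adjusted p = 0.00582). Among those that did not pass were the store pump ATP2A2, the calmodulin gene CALM2, the hair cell calcium channel CACNA1D and the plasma membrane channel ORAI1. Another probe set of CALM2 passed with more signal in the cochlea (-0.38, adjusted p = 0.00676). Of the genes that did not pass, CACNA1D passed without utricle array 3 (0.37, adjusted p = 0.0121), and ORAI1 passed with the replicate block (0.44, adjusted p = 0.00561).

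Genes for acetylcholine synthesis, vesicle loading and synaptic breakdown lay below the filter. CHAT, which makes acetylcholine, SLC18A3, its vesicular transporter, ACHE, which breaks it down at synapses, and COLQ, which anchors ACHE, did not exceed 4 on any array. SLC5A7, a choline transporter gene of the same list, exceeded 4 on utricle array 4 alone, at 4.61, and was not tested. The cell bodies of efferent neurons lie outside the dissected tissue. Of the 2 genes tested in this list of 8, BCHE, butyrylcholinesterase, showed 2.68-fold higher signal in the utricle, at 8.78 ± 0.33 in the utricle and 7.35 ± 0.19 in the cochlea (limma adjusted p = 1.68e-04). CALCA, the precursor of a peptide carried by efferent fibres in mammals, showed at least 1.92-fold higher signal in the cochlea, at 4.25 ± 0.43 in the utricle and 5.25 ± 0.41 in the cochlea (adjusted p = 0.0113). CALCA did not pass without a filter (adjusted p = 0.0635) or without utricle arrays 2 and 3 (adjusted p = 0.0614).

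Together the 5 lists held 63 genes, of which 23 were tested, 8 with more signal in the utricle and 6 with more in the cochlea. The called share was 60.9%, beside 53.3% of all genes tested (26.6% toward the utricle, 26.7% toward the cochlea), and the median difference was 0.14.

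**Figure D3:**
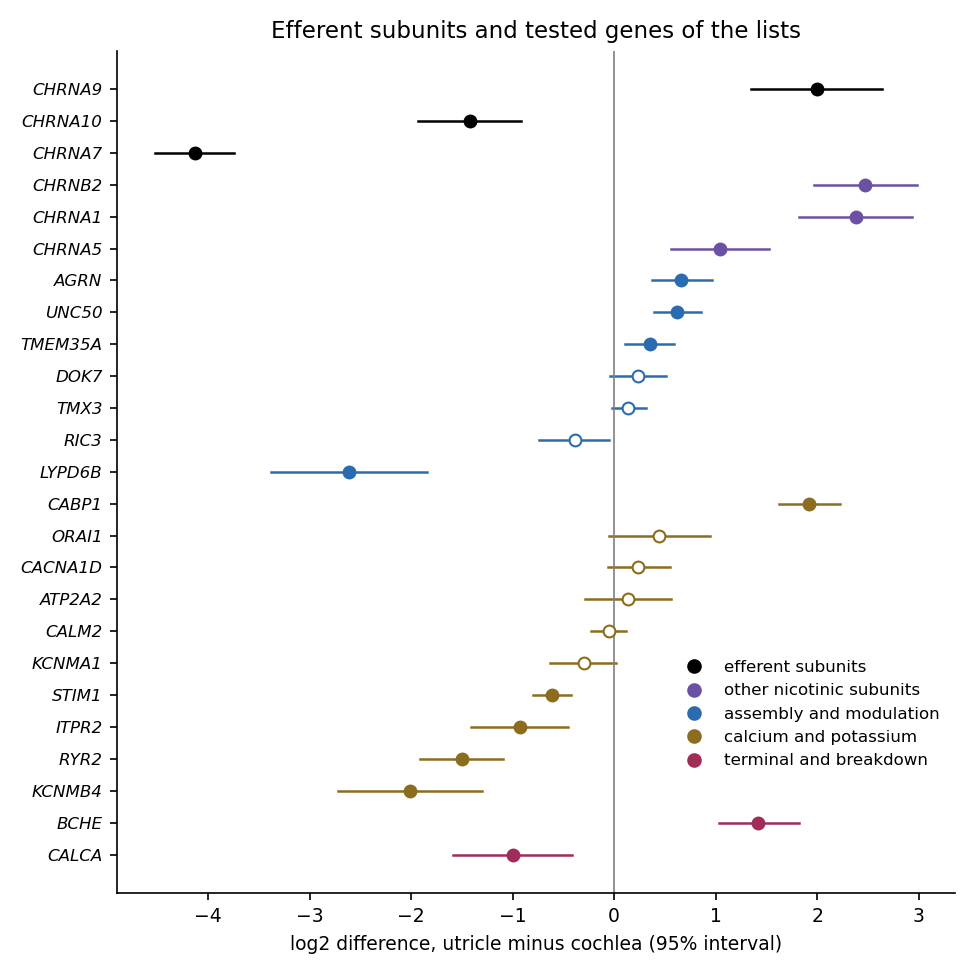
Log2 difference, utricle minus cochlea (x axis), with its 95% confidence interval for the 3 efferent subunits and 22 of the 23 tested genes of the lists, coloured by list, with filled points for an adjusted p under 0.05. CHRNA9 lies at 2.00 on the side of the other nicotinic subunits (1.04 to 2.47), and CHRNA10 and CHRNA7 lie at -1.42 and -4.13. Muscarinic receptors have no tested gene.

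Markers of cell types that carry these receptors were read beside the members. Hair cells, where CHRNA9 and CHRNA10 act, were represented by 14 tested markers. Of these, 6 were higher in the utricle and 5 were higher in the cochlea, beside 26.6% and 26.7% of all genes tested, while 3 did not pass. Without cochlea array 2, 3 or 4, or utricle array 2 or 3, 2 were higher in the cochlea, and without utricle array 1, 3 were. The summed signal of the hair cell markers ran from 18815.3 to 26750.3 on the utricle arrays and from 25930.9 to 29807.7 on the cochlea arrays, so the ranges overlapped. For each of the 4 array numbers the cochlea sum was the higher one. That order rested on a single marker, CIB2, at 10.85 to 11.56 on the utricle arrays and 13.45 to 13.58 on the cochlea arrays. The sum therefore does not stand for the 14 markers as a set. What part hair cell content has in the CHRNA9 and CHRNA10 differences was not tested. The mechanotransduction channel gene TMC1 showed 7.56-fold higher signal in the utricle (limma adjusted p = 3.30e-05), and CIB2, whose product binds that channel, showed 5.02-fold higher signal in the cochlea (adjusted p = 4.38e-06). The transcription factor genes ATOH1, POU4F3 and GFI1 carried no named probe set.

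The neuronal markers tested differed in both directions. Of 21 genes, 14 were named and 9 tested, with 2 higher in the utricle, 5 higher in the cochlea and 2 not passing. Among all genes tested, 26.6% were called toward the utricle and 26.7% toward the cochlea. The median difference of -1.94 was that of NTRK2, a neurotrophin receptor, and rests on utricle values under 4. NTRK2 read 2.26 to 3.03 on the utricle arrays and only 4.23 to 4.79 on the cochlea arrays. Their summed signal was 5002.7 to 6846.1 on the utricle arrays and 26470.2 to 30175.5 on the cochlea arrays, or, without NEFM, 4995.4 to 6840.2 on the utricle arrays and 19012.0 to 22785.6 on the cochlea arrays. Much of the remaining sum came from ISL1, a transcription factor gene, at 11.90 ± 0.33 in utricle and 13.86 ± 0.22 in cochlea, and without NEFM and ISL1 the sums were 1996.8 to 2425.0 on the utricle arrays and 5105.1 to 6532.9 on the cochlea arrays. The neurofilament gene NEFM showed at least 454.7-fold higher signal in the cochlea, NEFL 5.98-fold and UCHL1 4.93-fold. In the other direction, SNAP25, a protein of vesicle fusion, was 1.41-fold higher and NTRK3, a neurotrophin receptor, at least 3.83-fold higher in the utricle. NEFM and NTRK2 exceeded 4 on none of the utricle arrays and passed the filter through the cochlea alone. NTRK3 exceeded 4 on none of the cochlea arrays and passed it through the utricle alone. The neuronal markers NEFH, ELAVL3, STMN2, SYT1 and CNTN2 did not exceed 4 on any array. What part cells with NEFM, NEFL or UCHL1 have in the CHRNA7 and CHRNA10 signal was not tested.

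Glial markers summed to 5942.8 to 12516.3 on the utricle arrays and 6861.4 to 8276.9 on the cochlea arrays, over the 6 tested, among which S100B had more signal in the cochlea. The glial transcription factor gene FOXD3 did not exceed 4 on any array. Without utricle array 3, 2 glial markers were higher in the cochlea. Muscle markers summed to 532.8 to 1134.7 on the utricle arrays and 1595.6 to 2398.7 on the cochlea arrays, over the 2 tested of 10 listed.

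**Figure D4:**
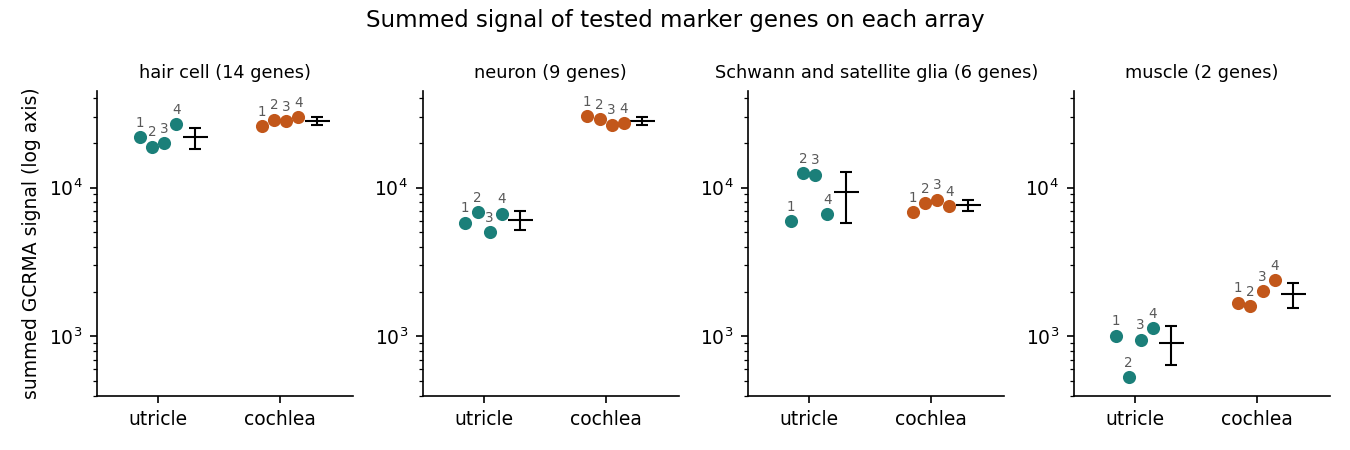
Summed GCRMA signal (y axis, log scale) of the tested markers of hair cells (14 genes), neurons (9), glia (6) and muscle (2) on the 4 utricle and 4 cochlea arrays, with array numbers beside the points and the mean ± SD as a bar. Neuronal markers are separate between the tissues (5002.7 to 6846.1 in the utricle, 26470.2 to 30175.5 in the cochlea), and the ranges of the hair cell markers overlap.

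For each member, the 4 most similar probe sets were sought among the tested probe sets with an assigned gene symbol. The members, unnamed probe sets, provisional symbols, and names unmatched or matched only by a synonym were left out. Likeness was the root mean square difference of mean-centred log2 signal over the 8 arrays, which mainly reflects the size and direction of the tissue difference. Nearest to CHRNA9 were FECH, an enzyme of haem synthesis (0.217), ELOVL5, an enzyme of fatty acid elongation (0.229), the dimmer probe set of CABP1 (0.255) and GLMN (0.261). FECH read 8.61, 7.91, 8.38 and 8.80 in the utricle and 6.32, 6.45, 6.62 and 6.15 in the cochlea, and shared with CHRNA9 its low value on utricle array 2. Nearest to CHRNA10 were CA10, a carbonic anhydrase-related protein (0.117), REEP6 (0.134) and 2 probe sets of the tubulin gene TUBB2A (0.138 and 0.195). CA10 read 7.04, 6.94, 7.54 and 7.85 in the utricle and 8.48, 8.84, 8.83 and 9.08 in the cochlea, and like CHRNA10 was highest on array 4 of each tissue. Nearest to CHRNA7 were CLDN5, a tight junction protein (0.204), RET, a receptor tyrosine kinase (0.226), ALPK2, a kinase (0.228), and PLEKHG1 (0.246). CLDN5 read 3.46, 3.42, 4.23 and 3.48 in the utricle and 7.60, 7.08, 7.68 and 7.55 in the cochlea, with its lowest cochlea value on array 2, as for CHRNA7. RET, the receptor of the GDNF family of growth factors, stayed below 4 on all utricle arrays (2.89 to 3.99) and read 7.31 to 7.71 in the cochlea. All these genes were chosen by likeness over the same 8 arrays, so shared highs or lows on single arrays follow in part from the choice.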

How the data were processed

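Affymetrix chicken arrays measured 4 utricle and 4 cochlea samples. The authors deposited log2 GCRMA signal (GC-based background correction, quantile normalization, median polish, per the workbook's notes, and GCRMA per the submitters' processing notes, with no version given). This correction compresses low signals toward a floor, 2.22 here. The deposited workbook also gives fold ratios and q-values in percent from the authors' SAM comparison and counts of present calls per tissue. A further 136 workbook columns of values per array were not used. A file header or label naming a genome build was not found, and no coordinates or sequences are printed.

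From these values, 96 control probe sets were left out, and probe sets above log2 4 on at least 4 of 8 arrays were tested by a two-sided moderated test in limma 3.58.1 under R 4.3.3 (utricle minus cochlea by lmFit, then eBayes, Benjamini-Hochberg over 16223 probe sets, threshold 0.05). A listed gene is represented by its brightest tested probe set. Where a dimmer tissue had values under 4, these were raised to 4 and the fold is written "at least". Pairs of members were compared with an exact permutation test over 70 regroupings. The number of arrays limits the precision. Names came from the authors' sheet and, for 27 genes, from its descriptions by hand, and 15110 probe sets stayed unnamed. Genes named in the text are the members, up to 3 per direction and list with the smallest adjusted p, KCNN2, KCNMA1, RIC3, RAPSN, ACHE and CHAT, and the 4 nearest profiles per member. Other genes were named to account for small counts, after their values were seen, and 2 listed genes are not reported here by name. The members and lists were chosen with earlier results of these data known. The fit was tested on simulated data. Plots were made with matplotlib 3.10.9.

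The tissues share replicate numbers. Deviations from the tissue means correlated at 0.552, 0.48, 0.404 and 0.144 for arrays of the same number, each above 0.1. Utricle array 3 with cochlea array 4 reached 0.304, above the 0.144 of the arrays numbered 4. The other arrays of unlike number correlated at 0.00134 or lower. On this basis the replicate block treated equal numbers as pairs. The main fit and the exact permutation tests left the arrays unpaired. The meaning of the numbers is not given in the labels. The workbook headers carry codes that split the arrays within each tissue, and what these codes stand for is not stated. Alternatives were other normalizations, filters and eBayes settings, array weights, the replicate block, the workbook values and leaving out arrays. Others were array number 1 against numbers 2 to 4 as a block, and arrays numbered 2 to 4 only.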

Additional observations from a re-analysis of the deposited data

Results flagged for a closer look

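Among the member genes, 3 arrays lay apart from the other arrays of their tissue by Dixon's criterion, which compares the gap to the nearest array with the whole range of the tissue. CHRNA9 read 7.42 on utricle array 2, with a gap of 0.93 in a range of 1.10. CHRNA9 also read 5.59 on cochlea array 4, with a gap of 0.78 in a range of 0.83. CHRNA7 read 7.0 on cochlea array 2, with a gap of 0.56 in a range of 0.65. Chance flags about 1 in 20 groups, and 12 groups of 4 arrays were examined, 6 from the 3 genes and 6 from their within-array differences in the 2 tissues. Without utricle array 2 and cochlea array 4, a setting chosen after seeing the data, the tissue difference was 2.05 for CHRNA9 (limma adjusted p = 1.53e-05), -1.22 for CHRNA10 and -4.00 for CHRNA7.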

How the results depend on the processing

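CHRNA9, CHRNA10 and CHRNA7 kept their direction and passed the threshold under all 22 alternatives run, 2 of them chosen after seeing the data. The log2 difference, utricle minus cochlea, ranged from 1.80 to 2.30 for CHRNA9 (limma adjusted p 1.53e-05 to 0.00582), from -1.59 to -1.22 for CHRNA10 (1.68e-04 to 0.0136) and from -4.28 to -3.45 for CHRNA7 (6.79e-08 to 3.32e-05). Leaving out 1 array at a time gave 1.80 to 2.25 for CHRNA9, -1.59 to -1.30 for CHRNA10 and -4.28 to -4.05 for CHRNA7. Pairing arrays by number as a replicate block changed none of the 3 calls and, among the listed genes, only those of KCNMA1 and ORAI1. In the pair comparisons with the replicate block (exact sign-flip test), the differences of 3.42, 6.13 and 2.71 had an adjusted p of 0.125, the smallest 4 pairs can give, so that test says nothing on stability. Leaving out 1 array gave 3.10 to 3.65, 5.88 to 6.36 and 2.51 to 2.87. With a filter at 6, which tests fewer genes, 2 listed genes were higher in the cochlea, against 6. Among 23 listed genes, 10 had the same call and direction in all 22 refits, and a further 4 in the refits that tested them. Values reversed for UNC50 as the mean over its probe sets (-0.05) and for ATP2A2 without utricle array 2 and cochlea array 4 (-0.06), where the cause was not tested. Over all probe sets, calls ranged from 3034 to 4855 higher in the utricle and 3076 to 4583 higher in the cochlea. Signals near the GCRMA floor, as for CHRNA7 in the utricle, limit what can be said of low levels.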

Other observations

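The authors' present calls and the GCRMA signal differ for some dim probe sets. On the authors' sheet of detected genes, 4250 probe sets stayed under log2 4 on all 4 utricle arrays, and 1057 of them (24.9%) are counted as present on 4 of 4 utricle arrays, CHRNA7 among them. For the cochlea the figures were 4380 and 1000 (22.8%). Of the probe sets above 4 on all arrays of a tissue, 96.9% in the utricle and 96.7% in the cochlea are counted as present on 4. CHRNA4, a brain receptor subunit, is counted as present on 4 of 4 utricle and 4 of 4 cochlea arrays, and CHRNA6 on 4 utricle and 2 cochlea arrays, while their GCRMA signal did not exceed 4 on any array.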
